A study of Mus musculus with 6 samples.

Results

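The 9 genes described here are the corticosteroid receptor genes Nr3c1 and Nr3c2 and 7 genes known as targets of glucocorticoids, Fkbp5, Tsc22d3, Sgk1, Errfi1, Mt1, Mt2 and Nfkbia. They were chosen by symbol from the 29493 genes of the deposited count table, and levels are given in CPM, counts per 1000000 of the effective library size, with the SD over 3 libraries after ±. All 9 were in the table and all 9 passed the filter on low counts. The counts come from RNA sequencing of HT22, a mouse hippocampal neuronal line, of the genotype HT22-TR/TO-V5Klf13-1, in which a V5-tagged KLF13 transgene is held off by the tet repressor. KLF13 is a zinc-finger transcription factor. The Dox group (n = 3) received doxycycline at 1 µg/ml for 8 hours and the Vehicle group (n = 3) did not. Both groups carry the transgene, so doxycycline and KLF13 cannot be told apart, and the labels name no corticosteroid treatment in either group. Whether the line is 1 clone, and whether the libraries of a group came from separate cultures, is not given in the sources used here, so the p-values measure the spread between these libraries, which may be technical.

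Glucocorticoids such as corticosterone cross the cell membrane and bind receptors that are held ready in the cytoplasm by HSP90 and its co-chaperones. The receptors then enter the nucleus and bind a palindromic DNA sequence, the glucocorticoid response element, or act through other factors such as NF-kB. Neurons of the hippocampus are known for holding both receptors, the high-affinity mineralocorticoid receptor (Nr3c2) and the lower-affinity glucocorticoid receptor (Nr3c1), and for their part in the stress response.

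Promoter sequence was taken from RefSeq (GRCm38.p6) for the 250 bases before each annotated start. It was searched for 8 of the 9 genes, in 16 windows. Nr3c1 was left out of the search, so nothing is said here of its promoter. The letters of 5 windows are shown as examples of the motifs described below. The Sgk1 window is shown for a full glucocorticoid response element (the half-site AGAACA, 3 bases of any kind and its reverse complement TGTTCT, in capitals), found 189 bases before 1 of the 6 annotated Sgk1 starts. The Fkbp5 window is shown as an example of GC boxes (GGGCGG, the kind of site that SP and KLF factors bind), of which it has 3. It is not particular in this: windows of Nr3c2 and Errfi1 also had 3, and 1 of Sgk1 had 4. The windows of the neighbouring metallothionein genes are shown for the metal response element core (TGCNCNC), and that of Nfkbia for an NF-kB site (GGG, 3 bases of any kind and TTCC). Each motif was searched on both strands, and capitals mark the motif a window is shown for. The Sgk1, Fkbp5 and Nfkbia windows hold no annotated exon, the last 7 bases of the Mt1 window are Mt1 exon, and the Mt2 window lies within exons of Gm45774 on the opposite strand.
Sgk1, chr10:21993640-21993889, plus strand: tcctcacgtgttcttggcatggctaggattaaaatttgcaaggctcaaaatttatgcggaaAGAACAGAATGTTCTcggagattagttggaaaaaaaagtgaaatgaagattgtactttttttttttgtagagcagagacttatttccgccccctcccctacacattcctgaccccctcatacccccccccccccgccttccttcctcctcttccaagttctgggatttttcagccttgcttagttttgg
Fkbp5, chr17:28486150-28486399, minus strand: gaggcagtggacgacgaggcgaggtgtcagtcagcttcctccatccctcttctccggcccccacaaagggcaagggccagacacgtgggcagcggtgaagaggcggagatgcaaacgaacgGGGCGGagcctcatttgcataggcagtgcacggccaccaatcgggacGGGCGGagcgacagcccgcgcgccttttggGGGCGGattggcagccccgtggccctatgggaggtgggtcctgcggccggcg
Mt2, chr8:94172368-94172617, plus strand: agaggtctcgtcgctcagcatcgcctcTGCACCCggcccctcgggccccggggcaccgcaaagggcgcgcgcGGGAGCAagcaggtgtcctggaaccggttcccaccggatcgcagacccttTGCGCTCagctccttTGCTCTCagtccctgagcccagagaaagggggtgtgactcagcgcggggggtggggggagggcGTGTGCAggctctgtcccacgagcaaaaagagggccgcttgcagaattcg
Mt1, chr8:94178839-94179088, plus strand: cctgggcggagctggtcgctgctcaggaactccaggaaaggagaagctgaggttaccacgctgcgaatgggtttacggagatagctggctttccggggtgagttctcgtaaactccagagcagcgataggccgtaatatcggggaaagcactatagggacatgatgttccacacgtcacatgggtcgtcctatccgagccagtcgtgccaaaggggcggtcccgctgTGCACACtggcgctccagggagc
Nfkbia, chr12:55492648-55492897, minus strand: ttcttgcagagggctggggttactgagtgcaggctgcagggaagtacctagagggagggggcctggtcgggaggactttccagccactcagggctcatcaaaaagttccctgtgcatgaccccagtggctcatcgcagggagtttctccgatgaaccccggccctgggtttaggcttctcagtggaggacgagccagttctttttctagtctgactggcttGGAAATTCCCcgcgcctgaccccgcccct

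The full glucocorticoid response element was found in 3 of the 32851 promoter windows in the RefSeq table (0.00913%), of which the Sgk1 window was 1. A relaxed form (GNACA, 3 bases of any kind and TGTNC), which the full form also matches, was found in 127 windows (0.387%), those of Sgk1 and Mt1 among them. The half-site AGAACA, also part of the full element, was in 16.1% of all windows and in windows of Sgk1 and Tsc22d3. GC boxes were in 9 of the 16 windows (56.2%) and in 32.7% of all windows. Each of the 8 searched genes except Mt2 had at least 1 such window. The KLF consensus CCNCNCCC, which can overlap a GC box, was in 7 of the 16 windows (43.8%) and in 45.9% of all windows. The metal response element core matched 5 times in the Mt2 window and 1 time in that of Mt1, and it was in 9 of the 16 windows (56.2%) and in 44.4% of all windows. Only 1 window was searched for each of Mt1 and Mt2. Mt1 has annotated transcripts of 1085, 633 and 549 bases, and sequence after the start used was not searched. The numbers of matches therefore do not compare the promoters of Mt1 and Mt2. The NF-kB letters were in the Nfkbia window alone among the 8 genes, 29 bases before the start, and in 4.65% of all windows. These matches describe letters within the windows only. Binding was not measured.

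With Dox, the glucocorticoid receptor transcript Nr3c1 fell 2.17-fold, while the targets moved in both directions: Tsc22d3, Errfi1 and Sgk1 rose and Nfkbia, Mt2 and Fkbp5 fell. Among the 9, Nr3c1 fell furthest and Tsc22d3 rose furthest (1.62-fold), and Fkbp5, Sgk1 and Errfi1 moved by 1.15-, 1.14- and 1.21-fold. By edgeR's quasi-likelihood test at an adjusted p under 0.05, 3 of the 9 genes rose, 4 fell and Nr3c2 and Mt1 did not pass. Of all 18067 genes tested, 54.7% were called, 25.9% higher and 28.8% lower, so 7 calls among 9 genes (77.8%) is a share to be read against a table in which most genes were called. Among the 11629 genes with a mean of at least 5 CPM, which leave out Nr3c2, 70.9% were called (4072 higher and 4176 lower), and 7 of the 9 were among these. The 2 groups did not overlap for 7 of the 9 genes, and they did not overlap for 64% of all tested genes. A change of at least 2-fold was called for 1 of the 9 genes and for 9.25% of all tested genes. The median log2 fold change was -0.21 over the 9 genes and 0.018 over all tested genes.

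**Figure D1:**
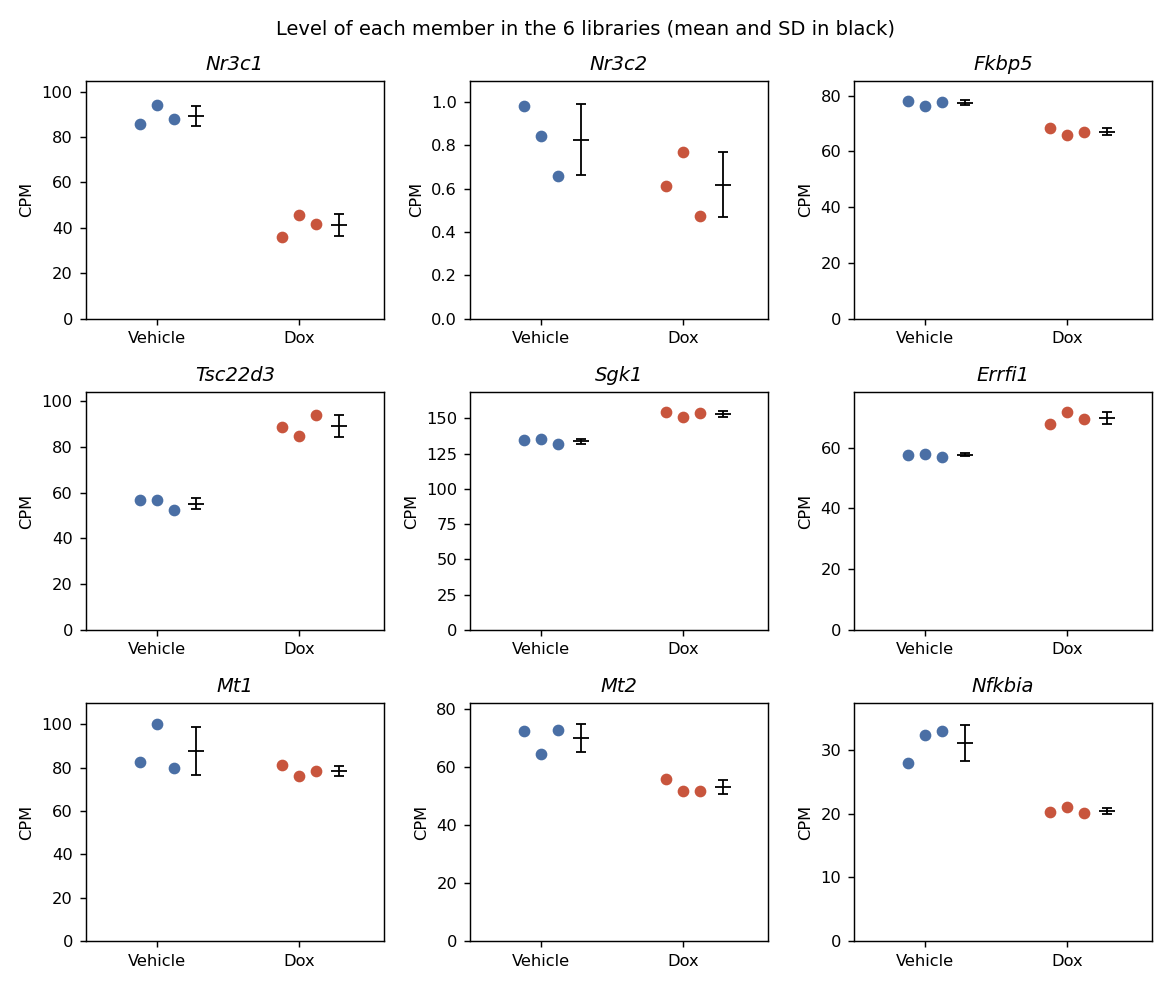
Level of each of the 9 genes in CPM (y axis from 0, a scale of its own per gene) in the 3 Vehicle and 3 Dox libraries; points are libraries, and the black mark is the mean with its SD. The 2 groups are apart for Nr3c1, Fkbp5, Tsc22d3, Sgk1, Errfi1, Mt2 and Nfkbia and overlap for Nr3c2 and Mt1.

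Nr3c1, which encodes the glucocorticoid receptor, is a minus-strand gene at chr18:39410545-39519421 by the GENCODE M21 annotation of GRCm38. Its level was 85.6, 94.0 and 88.0 CPM in Vehicle replicates 1, 2 and 3 and 36.0, 45.7 and 41.8 CPM in Dox replicates 1, 2 and 3. Every Dox library was below every Vehicle library, and Dox replicate 1 was the lowest of all. Means were 89.2 ± 4.32 and 41.2 ± 4.87 CPM (SD, n = 3 each), a fall of 2.17-fold (log2 fold change -1.11 ± 0.090 SE, 95% interval -1.33 to -0.90, edgeR adjusted p = 8.1e-05). Of all tested genes, 8.16% had a larger absolute log2 fold change. The authors' deposited table gives Nr3c1 a log2 fold change of -1.10 with a standard error of 0.094. In these bulk libraries, fewer cells expressing a gene and less of its RNA per cell cannot be told apart.

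Nr3c2, which encodes the mineralocorticoid receptor, was near the limit of detection. It lies on the plus strand of chromosome 8, 76899442 to 77245012. Its counts were 37, 35 and 34 in Vehicle replicates 1, 2 and 3, and 26, 38 and 22 in Dox replicates 1, 2 and 3. The groups overlapped, at 0.656 to 0.981 CPM and 0.473 to 0.770 CPM. The log2 fold change was -0.40 ± 0.24 SE (adjusted p = 0.2), and its 95% interval, -0.98 to 0.17, reaches into that of Nr3c1. A difference was not detectable at this depth, and 247 exonic bases of the gene are shared with Gm10649 on the opposite strand. Scaled to transcript length, Nr3c1 exceeded Nr3c2 by a ratio of 80.2 to 123 in the Vehicle libraries and 54.2 to 81.3 in the Dox libraries. The ranges of that ratio met, with Vehicle replicate 1 below Dox replicate 3.

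The genes whose pattern over the 6 libraries lay nearest to that of Nr3c1, by root-mean-square distance of the mean-centred log2 CPM among 13316 other genes of at least 2 CPM, were Ahr, Lef1 and Fam199x. Ahr, the aryl hydrocarbon receptor, another ligand-activated transcription factor of the cytoplasm, was at a distance of 0.029 and fell from 5.97 ± 0.187 to 2.73 ± 0.323 CPM (SD, n = 3 each). Lef1, a transcription factor of WNT signalling, was at 0.037, and Fam199x at 0.039. Because these genes were picked for closeness to Nr3c1, their fall of about the same size and lowest value in Dox replicate 1 follow from the choice. Ahr and Lef1 had 101 to 153 counts in the Dox libraries, and whether the order of distances exceeds sampling noise was not tested.

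Fkbp5 encodes FKBP51, a co-chaperone that lowers the affinity of the receptor for its hormone and is itself a widely used readout of receptor activity. It is a minus-strand gene at chr17:28399094-28517527. Its level was 78.1, 76.4 and 77.8 CPM in Vehicle replicates 1, 2 and 3 and 68.5, 66.0 and 66.8 CPM in Dox replicates 1, 2 and 3. The spread within each group was small, and no Dox library reached the Vehicle range. The fall was 1.15-fold (log2 fold change -0.21 ± 0.028 SE, edgeR adjusted p = 8.9e-04). It depended on scaling in size: the log2 fold change was -0.11 with upper-quartile scaling (adjusted p = 0.018) and -0.14 with an offset for transcript length (adjusted p = 0.011). The glmTreat test against a 1.2-fold change did not call it.

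Tsc22d3 encodes GILZ, a leucine zipper protein that carries part of the anti-inflammatory action of glucocorticoids. It is a minus-strand gene at chrX:140539528-140600659. Its level was 56.7, 56.7 and 52.3 CPM in Vehicle replicates 1, 2 and 3 and 88.9, 84.8 and 94.3 CPM in Dox replicates 1, 2 and 3. All Dox libraries were well above all Vehicle libraries. Means of 55.2 ± 2.51 and 89.3 ± 4.73 CPM (SD, n = 3 each) gave a rise of 1.62-fold (log2 fold change 0.69 ± 0.053 SE, adjusted p = 6.1e-05). The change was opposite in sign to that of Nr3c1, and 20.5% of all tested genes had a larger absolute log2 fold change. The table of counts per gene does not separate its transcripts, which arise from 3 RefSeq starts.

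Sgk1 encodes a kinase that raises sodium channel and transporter activity and is a classical target of both receptors. Sgk1 lies on the plus strand of chromosome 10, 21882184 to 21999903, and 1 of its starts has the full response element shown above. Its level was 134.4, 135.4 and 131.9 CPM with vehicle and 154.5, 150.7 and 153.8 CPM with Dox, in replicates 1, 2 and 3. The groups were apart, with means of 133.9 ± 1.78 and 153.0 ± 2.03 CPM (SD, n = 3 each). The rise was 1.14-fold (log2 fold change 0.19 ± 0.024 SE, edgeR adjusted p = 5.8e-04). Errfi1 encodes MIG6, a feedback inhibitor of the EGF receptor family, and lies on the plus strand of chromosome 4, 150853919 to 150868892. It had 57.7, 58.1 and 57.1 CPM with vehicle and 67.9, 71.8 and 69.6 CPM with Dox. Again no library of one group reached the other, and the rise was 1.21-fold (log2 fold change 0.28 ± 0.031 SE, edgeR adjusted p = 4e-04). Neither Sgk1 nor Errfi1 was called by glmTreat against a 1.2-fold change.

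**Figure D2:**
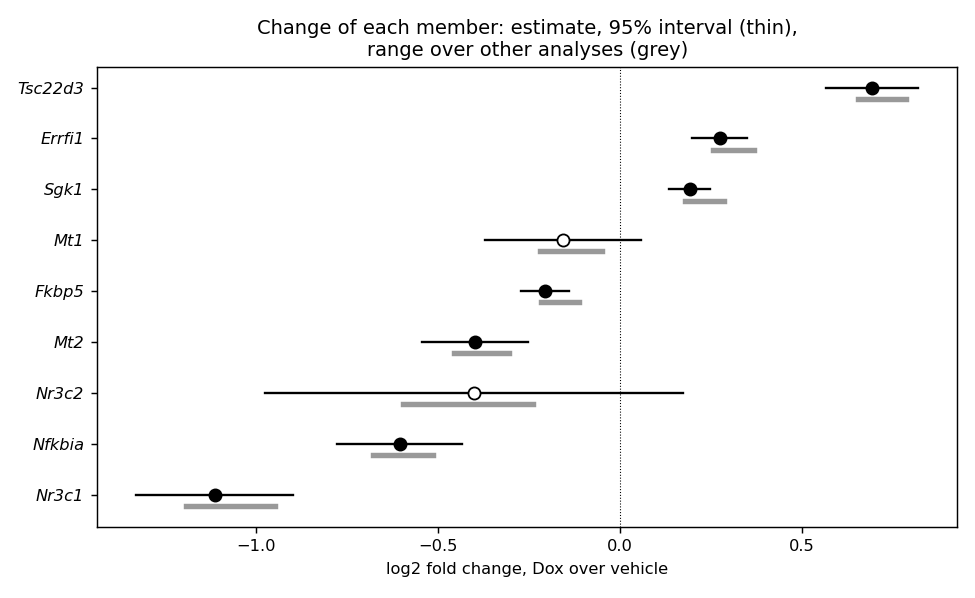
Log2 fold change of each of the 9 genes, Dox over vehicle (x axis); circles are the edgeR estimates, filled where the adjusted p was under 0.05, thin lines are 95% intervals, and grey bars give the range over the other analyses (17 for each gene, 16 for Nr3c2). Nr3c1 lies lowest at -1.11 and Tsc22d3 highest at 0.69, and the intervals of Nr3c2 and Mt1 cross 0.

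The metallothioneins are small cysteine-rich proteins that bind zinc and copper, and their genes are induced by metals and by glucocorticoids. Mt2 and Mt1 are neighbours on the plus strand of chromosome 8, Mt2 at 94172664 to 94173568 and Mt1 at 94179082 to 94180327. Mt2 had 72.5, 64.5 and 72.9 CPM in Vehicle replicates 1, 2 and 3 and 55.8, 51.7 and 51.6 CPM in Dox replicates 1, 2 and 3. It fell 1.32-fold (log2 fold change -0.40 ± 0.060 SE, adjusted p = 0.0015), with no overlap between the groups. Mt1 had 82.5, 100.3 and 79.8 CPM with vehicle and 81.0, 76.3 and 78.3 CPM with Dox. The Vehicle range of Mt1 was widened by replicate 2, and the groups overlapped. Its log2 fold change was -0.16 ± 0.089 SE (95% interval -0.37 to 0.058, adjusted p = 0.18), and without Vehicle replicate 2 it was -0.05 (adjusted p = 0.34). Whether Mt1 and Mt2 changed differently was not tested: the ratio of their counts was 1.14, 1.56 and 1.09 in Vehicle replicates 1, 2 and 3 and 1.45, 1.48 and 1.52 in Dox replicates 1, 2 and 3. Vehicle replicate 2 had both the highest Mt1 and the lowest Mt2 of its group. The 2 genes are close copies that can share reads, and 432 exonic bases of Mt2 are shared with Gm45774 on the opposite strand, which had 23 to 50 counts.

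For each list of related genes, those with the largest called changes at a mean of at least 1 CPM are named, and any others were chosen for their known roles after their values had been seen. Shares of all tested genes are given beside each list, but calls were more frequent among well-expressed genes. Of the 11629 genes with a mean of at least 5 CPM, 70.9% were called, 4072 higher and 4176 lower. Apart from the cell type markers, the lists had from 68.9% (other induced genes) to 85% (chaperones) of their tested genes called. The lists were not compared with genes of matched level. Of the other genes listed for zinc and copper handling, 23 were tested, of which 9 rose and 7 fell (39.1% and 30.4%, against 25.9% and 28.8% of all tested genes), and their median log2 fold change was 0.10. The zinc exporter Slc30a1, which like the metallothioneins is induced by zinc through MTF1, rose from 13.4 ± 0.465 to 20.1 ± 0.454 CPM, and the copper importer Slc31a1 rose from 101.8 ± 1.23 to 160.2 ± 4.47 CPM (SD, n = 3 each). Of 10 tested SLC39 genes, which encode zinc importers, 6 fell and 1 rose, and 2 and 3 rose with the offsets for transcript length and GC content and 2 without Dox replicate 1. Slc39a6 fell by 1.65 ± 0.042 and Slc39a1 by 0.90 ± 0.030 on the log2 scale (SE). Slc39a9 was also among the falls (log2 fold change -1.40 ± 0.42, adjusted p = 0.029), but its groups overlapped, it shares exonic sequence with Erh, and the call was lost whenever a library except Vehicle replicate 3 was left out (adjusted p = 0.061 to 0.089), with limma-voom (adjusted p = 0.09), with the replicate block (adjusted p = 0.052) and with glmTreat (adjusted p = 0.051). Mtf1, the metal-sensing factor, had a log2 fold change of 0.20 ± 0.079 (adjusted p = 0.073), and passed with upper-quartile scaling (0.29, adjusted p = 0.022), with the offset for transcript length (0.39, adjusted p = 0.017), with the filter at a mean of 5 CPM (0.22, adjusted p = 0.05 after rounding) and without Vehicle replicate 3 (0.27, adjusted p = 0.034).

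Nfkbia encodes IkB-alpha, which holds NF-kB in the cytoplasm and is induced both by NF-kB itself and by glucocorticoids. It is a minus-strand gene at chr12:55489410-55492647. Its level was 27.9, 32.4 and 32.9 CPM in Vehicle replicates 1, 2 and 3 and 20.2, 21.0 and 20.1 CPM in Dox replicates 1, 2 and 3. The Dox libraries were closely grouped and all lay below the Vehicle libraries. Nfkbia fell 1.52-fold (log2 fold change -0.61 ± 0.071 SE, edgeR adjusted p = 4.7e-04).

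Other genes of the NF-kB pathway moved as well. Of 25 tested factors, inhibitors and kinases, 13 fell and 8 rose (52% and 32%, against 28.8% and 25.9% of all tested genes). Their median log2 fold change was -0.19. Relb, a subunit of the non-canonical pathway, fell 9.17-fold (12.8 ± 1.02 CPM with vehicle, 1.39 ± 0.0698 CPM with Dox), and its partner Nfkb2 fell from 178.3 ± 2.69 to 66.6 ± 1.72 CPM (SD, n = 3 each). Tnip2, an adaptor of the A20 ubiquitin-editing enzyme, fell 9.41-fold (9.99 ± 0.606 CPM with vehicle, 1.06 ± 0.155 CPM with Dox). Nfkbie, the gene of the inhibitor IkB-epsilon, fell 3.72-fold, and Tnfaip3, the gene of A20, fell by 1.12 ± 0.058 on the log2 scale (SE). Rela, the canonical subunit, fell by 0.67 ± 0.031, whereas Nfkb1 had a log2 fold change of 0.11 ± 0.064 (adjusted p = 0.2), and passed with upper-quartile scaling (0.20, adjusted p = 0.024) and with the offset for transcript length (0.19, adjusted p = 0.021). Nfkbib, the gene of IkB-beta, went the other way from Nfkbia and rose from 21.1 ± 0.898 to 35.7 ± 0.622 CPM (n = 3 each, SD), and the kinase gene Ikbkb rose by 0.55 ± 0.039 (SE). The inhibitors Nfkbia, Nfkbie and Nfkbib thus did not share a direction.

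Levels of different genes can be compared only per length. In CPM per kilobase of the longest coding transcript, the order with vehicle was Mt2 at 136.9 ± 9.27, Mt1 at 80.7 ± 10.3, Sgk1 at 43.3 ± 0.575, Tsc22d3 at 28.0 ± 1.27, Fkbp5 at 20.1 ± 0.233, Nfkbia at 19.7 ± 1.76, Errfi1 at 18.9 ± 0.163, Nr3c1 at 13.9 ± 0.671 and Nr3c2 at 0.140 ± 0.0276 (SD, n = 3 each). Nfkbia could not be ranked against Fkbp5 or Errfi1, since its range covered both. With Dox, Errfi1 (22.9 ± 0.648) stood above Fkbp5 (17.4 ± 0.328) and Nfkbia (12.9 ± 0.303) without overlap, and Tsc22d3 (45.3 ± 2.40) came close to Sgk1 (49.4 ± 0.654). Mt2 (103.8 ± 4.74) and Mt1 (72.4 ± 2.17) again stood highest. Nr3c1 at 6.40 ± 0.757 and Nr3c2 at 0.104 ± 0.0251 remained lowest. The order of the metallothioneins rests on the transcript used: with the 549 bases of a shorter annotated Mt1 transcript in place of 1085, Mt1 was at 159.4 ± 20.4 with vehicle and 143.0 ± 4.28 with Dox (SD, n = 3 each), above Mt2 in both groups. The other ranks also rest on the longest coding transcript, such as 1974 bases for Tsc22d3 and 3858 for Fkbp5. Shorter coding transcripts are annotated for both, of 1552 and 3543 bases among others, and ranks with these were not computed.

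**Figure D3:**
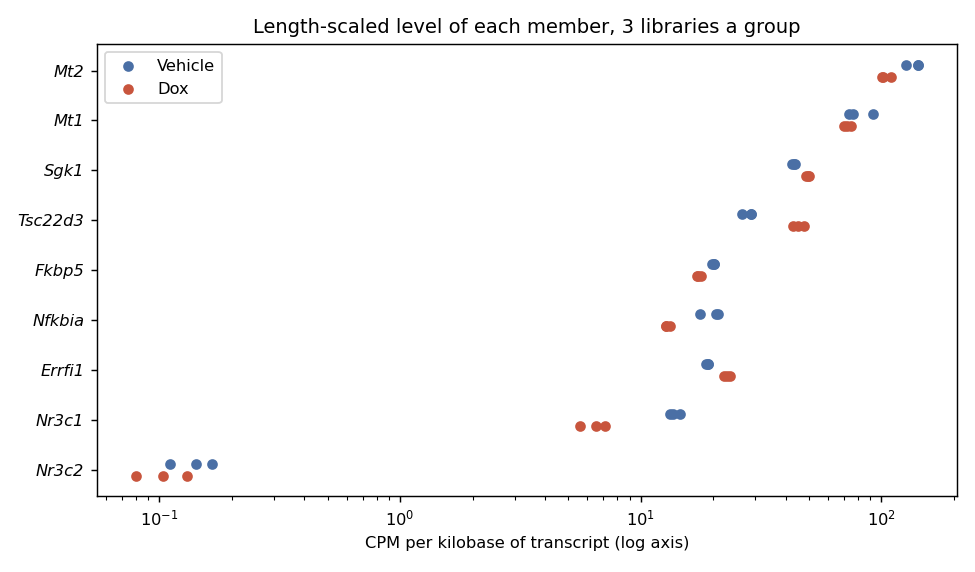
CPM per kilobase of the longest coding transcript (x axis, logarithmic) for each of the 9 genes; each point is 1 library, Vehicle in blue and Dox in red. Nr3c2 lies far below the other genes in both groups, and the Nr3c1 points shift left with Dox while those of Tsc22d3 shift right.

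The proteins that fold and hold the receptors were given by 20 chaperone and co-chaperone genes, all tested. Of these 12 fell and 5 rose (60% and 25%, against 28.8% and 25.9% of all tested genes). Their median log2 fold change was -0.17, and with upper-quartile scaling 7 fell. Hsp90ab1, the constitutive HSP90 gene, fell from 3040 ± 34.5 to 1774 ± 106 CPM, and St13, the gene of the HSP70-interacting protein HIP, fell from 366.2 ± 1.65 to 184.1 ± 7.95 CPM (SD, n = 3 each). Bag4, a BAG-domain partner of HSP70, fell by 1.01 ± 0.082 on the log2 scale (SE), and shares exonic sequence with Gm17484. Hsp90aa1, the inducible HSP90 gene, had 509.3 ± 71.3 and 442.6 ± 18.4 CPM (SD, n = 3 each) and did not pass (adjusted p = 0.14), but did without Vehicle replicate 1 (log2 fold change -0.32, adjusted p = 0.0015). Fkbp4, the gene of FKBP52, which opposes FKBP51 at the receptor, fell by 0.30 ± 0.029 on the log2 scale. Ahsa1, an activator of the HSP90 ATPase, rose by 0.62 ± 0.027 and Ppid, the cyclophilin co-chaperone, by 0.47 ± 0.024.

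Coregulators are the proteins that bound receptors recruit to chromatin. Of 29 tested genes, 18 fell and 3 rose (62.1% and 10.3%, against 28.8% and 25.9% of all tested genes). Their median log2 fold change was -0.33. With the offset for transcript length, 6 rose. The largest falls were those of Ncoa2, Hdac6 and Ncoa1. Ncoa2, also known as GRIP1, fell 4.07-fold (65.8 ± 3.39 CPM with vehicle, 16.2 ± 5.59 CPM with Dox), with Dox libraries at 9.76 to 20.0 CPM, and Ncoa1, which shares 68 exonic bases with 4921501I09Rik on the other strand, fell 3.65-fold (28.7 ± 1.66 CPM with vehicle, 7.87 ± 1.78 CPM with Dox) (SD, n = 3 each). Hdac6, a deacetylase of HSP90, fell from 20.2 ± 0.583 to 5.37 ± 0.355 CPM. The acetyltransferase genes Ep300 and Crebbp fell by 0.48 ± 0.055 and 0.42 ± 0.046 on the log2 scale (SE). The corepressor gene Ncor1 had a log2 fold change of -0.077 ± 0.043 (adjusted p = 0.18), and 0.14 with the offset for transcript length (adjusted p = 7.4e-04). Ncoa4 rose by 0.45 ± 0.032. Ncoa3, which with Ncoa1 and Ncoa2 makes up the p160 coactivators, rose by 0.19 ± 0.052 (adjusted p = 0.023), a call lost without Vehicle replicate 2 or 3 or Dox replicate 1 or 2 (adjusted p = 0.053 to 0.076) and with glmTreat against a 1.2-fold change.

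Of 12 tested genes of corticosteroid metabolism and transport, 7 fell and 3 rose (58.3% and 25%, against 28.8% and 25.9% of all tested genes). Their median log2 fold change was -0.16. The enzymes that switch corticosterone on and off within cells were barely detected: Hsd11b1 had at most 5 counts and Hsd11b2 at most 13 in any library, and neither passed the filter. H6pd, which supplies cofactor to the first, fell by 0.31 ± 0.040 on the log2 scale (SE). The steroid reductase gene Srd5a1 fell by 0.40 ± 0.047 and shares exonic sequence with Gm17108, and Fdxr, a reductase of mitochondrial steroid hydroxylation, fell by 0.40 ± 0.038. Abcb1b, an export pump that carries corticosteroids, rose from 80.6 ± 2.25 to 102.0 ± 2.22 CPM (SD, n = 3 each). Akr1c14, a hydroxysteroid dehydrogenase gene, rose 2.99-fold (1.28 ± 0.163 CPM with vehicle, 3.82 ± 0.310 CPM with Dox), and shares exonic sequence with the neighbour Gm18857.

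A wider set of genes known to be induced by glucocorticoids moved in both directions, as the 9 did. Of 45 tested, 19 fell and 12 rose (42.2% and 26.7%, against 28.8% and 25.9% of all tested genes). Their median log2 fold change was -0.12. Usp2, a deubiquitinase gene with a daily rhythm, rose 2.25-fold (9.19 ± 0.0674 CPM with vehicle, 20.7 ± 2.35 CPM with Dox) and shares exonic sequence with predicted genes on the other strand. Lpin1, a phosphatidate phosphatase, and Mfsd2a, a lysolipid transporter, rose by 1.02 ± 0.086 and 1.10 ± 0.064 on the log2 scale (SE). Among the falls were Klf9 (by 1.24 ± 0.092), a KLF13 relative, Bcl2l11 (by 1.21 ± 0.23), the gene of the death protein BIM, Foxo3 (by 1.07 ± 0.039) and Zfp36 (by 1.11 ± 0.081), which encodes a protein that destabilizes cytokine transcripts. The clock gene Per1, a direct receptor target in many tissues, fell from 20.1 ± 1.42 to 14.1 ± 0.441 CPM, whereas Dusp1, a MAP kinase phosphatase gene, rose from 20.1 ± 0.816 to 23.6 ± 0.141 CPM (SD, n = 3 each). Ddit4, an inhibitor of mTORC1, was not called (log2 fold change 0.060 ± 0.048, adjusted p = 0.33) except with the GC offset (0.24, adjusted p = 0.0058) and with upper-quartile scaling (0.15, adjusted p = 0.037).

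**Figure D4:**
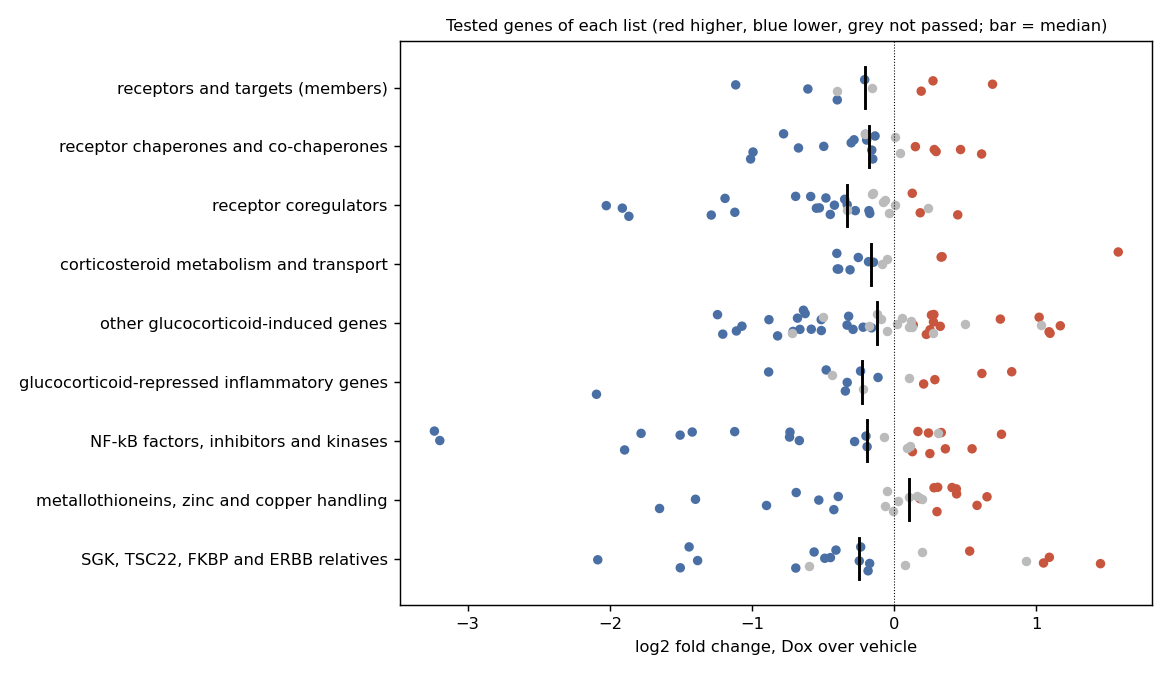
Log2 fold change, Dox over vehicle (x axis), of every tested gene in each list (y axis; points are spread vertically at random for visibility); red genes rose and blue genes fell at an adjusted p under 0.05, grey genes did not pass, and the bar is the list's median. Medians run from -0.33 for the coregulators to 0.10 for metal handling, against 0.018 over all tested genes.

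Inflammatory genes that glucocorticoids are known to repress also split. Of 14 tested, 7 fell and 4 rose (50% and 28.6%, against 28.8% and 25.9% of all tested genes). Their median log2 fold change was -0.23. Il6, Il1a and Tnf had at most 6, 3 and 3 counts in any library and were not tested. The chemokine gene Ccl2 fell by 0.48 ± 0.032 on the log2 scale and Ptges, which encodes an inducible prostaglandin E synthase, by 0.88 ± 0.10 (SE). Plau, the gene of urokinase, rose by 0.62 ± 0.038. Cxcl10, an interferon-induced chemokine gene, rose 1.78-fold (4.12 ± 0.183 CPM with vehicle, 7.32 ± 0.169 CPM with Dox) (SD, n = 3 each) and shares exonic sequence with Art3. The adhesion gene Vcam1 rose by 0.29 ± 0.026. Exonic bases are also shared with a gene on the other strand by Nfkb2, Nfkbib, Slc30a1, Mtf1, Ncoa3, Ncor1, Zfp36, Vcam1, Abcb1b, Fkbp14, Nedd4l and Pdgfra, and the counting is not stated to use strand.

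Relatives and partners of SGK1, GILZ, FKBP51 and MIG6 made up the last list. Of 21 tested, 13 fell and 4 rose (61.9% and 19%, against 28.8% and 25.9% of all tested genes). Their median log2 fold change was -0.24. Pdpk1, the kinase that activates SGK1, fell 2.84-fold (128.3 ± 5.47 CPM with vehicle, 45.2 ± 0.289 CPM with Dox), and Nedd4l, a ubiquitin ligase that SGK1 phosphorylates, fell 2.72-fold (44.3 ± 2.40 CPM with vehicle, 16.3 ± 0.252 CPM with Dox) (SD, n = 3 each), while Sgk1 rose. Tsc22d4 fell by 1.38 ± 0.039 on the log2 scale and Tsc22d1 by 0.23 ± 0.041 (SE), against the rise of Tsc22d3. The call for Tsc22d1 was lost with the offset for transcript length (-0.11, adjusted p = 0.088) and with that for GC content (-0.06, adjusted p = 0.3). For Tsc22d2 the fall of 0.17 ± 0.055 (adjusted p = 0.038) was lost with upper-quartile scaling (adjusted p = 0.26), with glmTreat (adjusted p = 1), with the replicate block (adjusted p = 0.083), with no filter on low counts (adjusted p = 0.077), with the filter at a mean of 5 CPM (adjusted p = 0.051), with the offset for transcript length (0.05, adjusted p = 0.46) and whenever a library except Dox replicate 2 was left out (adjusted p = 0.054 to 0.11). Among FKBP genes, Fkbpl rose 2.74-fold and Fkbp7 and Fkbp14 rose by 1.09 ± 0.061 and 1.05 ± 0.046, and Fkbp9 fell by 0.56 ± 0.029. Erbb2, a receptor that MIG6 inhibits, fell from 60.0 ± 1.67 to 37.1 ± 1.23 CPM (SD, n = 3 each).

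Across the 6 libraries, total counts ran from 38.6e6 to 52.9e6. Klf13, the gene induced, rose 5.13-fold, with every Dox library above every Vehicle library, and its counts may hold transcripts of the transgene. Markers of the neuronal label were detected in part: of 15 neuron markers, 9 were in the table and 5 were tested. Of the 9, 5 had a mean under 1 CPM, among them Map2, Slc17a7 and Grin1, with at most 10, 8 and 4 counts in any library. Of the 5 tested, 4 fell and 0 rose (80% and 0%, against 28.8% and 25.9% of all tested genes). The summed level of the neuron markers was 95.8 to 97.1 CPM with vehicle and 32.0 to 33.6 CPM with Dox. Tubb3, neuronal beta-tubulin, fell 4.13-fold (60.8 ± 0.210 CPM with vehicle, 14.7 ± 0.410 CPM with Dox). Of 10 fibroblast markers 7 were tested and 5 fell, at a summed 10020 to 10540 CPM with vehicle and 8179 to 8559 CPM with Dox, with Col1a1 down by 0.66 ± 0.035, Pdgfra by 0.67 ± 0.040 and Thy1 by 0.49 ± 0.048 on the log2 scale (SE). Markers of astrocytes, microglia and endothelium were mixed. Gfap had at most 12, Cx3cr1 6 and Cldn5 2 counts in any library, whereas the astrocyte marker Slc1a3 was at 37.0 to 39.8 CPM and the microglia marker Tmem119 at 29.4 to 31.7 CPM with vehicle. Of the 8 tested markers of these cells 3 rose (Slc1a3, Ptprc and Pecam1) and 1 fell (Tmem119). Their summed levels with vehicle and with Dox were 73.5 to 203.6 and 56.1 to 219.4 CPM for astrocytes, 38.1 to 39.4 and 29.2 to 31.8 CPM for microglia, and 2.93 to 3.34 and 3.76 to 4.84 CPM for endothelium. The wide spread of the astrocyte sum within each group lay in 1 gene, Gja1. Slc1a3 was at 43.8 to 46.9 CPM with Dox, and Gfap, Aldh1l1, Slc1a2 and S100b had means under 1 CPM. The part of these marker shifts in the results for the 9 genes was not tested.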

How the data were processed

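Whole-transcript RNA from 3 Vehicle and 3 Dox libraries was sequenced. The submitters' processing notes name HISAT2 2.1.0, StringTie 1.3.3, FastQC 0.11.3 and DESeq2, and GRCm38 as the build, and whether counting used strand is not stated there. The deposited table holds raw counts per gene, with totals of 38.6e6 to 52.9e6. A second deposited table by the authors holds p-values, a test statistic (score), log2 fold changes and their standard errors, and a normalized mean signal. From the counts, genes were filtered with filterByExpr (18067 of 29493 kept), scaled by TMM and tested, Dox against Vehicle, with edgeR 4.0.16's quasi-likelihood test and Benjamini-Hochberg adjustment over all tested genes (threshold 0.05, R 4.3.3). CPM are counts scaled to the effective library size, and intervals are 95%. Gene coordinates, lengths and overlaps of at least 50 exonic bases came from GENCODE M21, in which 27367 of the symbols matched 1 gene. The members and lists were chosen with earlier results of these data known. All 9 members were named, and from every other list up to 3 called genes with the largest absolute log2 fold change at a mean of at least 1 CPM. No pair of replicates agreed within sampling noise (chi-square of 11.1 to 13.8 for each degree of freedom). The test was checked on simulated data. Alternatives were DESeq2 1.42.0, limma-voom (limma 3.58.1), other scalings, filters and thresholds, glmTreat, a replicate block and each library left out; offsets for transcript length and GC content were added after the data were seen. Some results of the listed genes are not reported here.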

Additional observations from a re-analysis of the deposited data

How the results depend on the processing

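All 7 calls among the 9 genes kept their direction and passed the threshold under 16 of the 17 alternatives, and Nr3c2 and Mt1 passed under none; the filter at a mean of 5 CPM removed Nr3c2. With glmTreat against a 1.2-fold change, 4 of the 9 genes and 6032 of all genes were called, fewer than the 7 and 9890 because a minimum fold was required; Fkbp5, Sgk1 and Errfi1 were then not called (adjusted p = 1, 1 and 0.32). The calls for Fkbp4, H6pd, Dusp1, Vcam1, Tsc22d1 and Slc1a3 were also lost there. Counts that fell by over 1.5 times there were the chaperones (2 higher, 5 lower), coregulators (1 higher), steroid metabolism (3 lower), other induced genes (3 higher), repressed genes (2 higher, 4 lower), NF-kB genes (3 higher) and metal handling (5 higher). At an adjusted p under 0.01, 1 coregulator was higher. Leaving out each library in turn gave 8987 to 9330 genes and 7 to 7 of the 9. With upper-quartile scaling the median log2 fold change of all genes moved from 0.018 to 0.11, and 6246 genes were higher and 4457 lower, in place of 4687 and 5203. Over the alternatives, the log2 fold change ran from -1.19 to -0.95 for Nr3c1 and from 0.66 to 0.79 for Tsc22d3. Ncor1 (-0.077) became 0.14 and Tsc22d2 (-0.17) became 0.05 with the length offset; the cause was not tested. Depth limits Nr3c2, at 22 to 38 counts a library.

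The labels number the replicates 1 to 3 in both groups. The main test did not treat the number as a pairing, since it is not said to mark a shared batch. Deviations of same-numbered libraries from their group means correlated at 0.039, 0.044 and -0.075 across 14635 genes. A fit with the replicate block called 9699 genes and 7 of the 9.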
